A study of Mus musculus with 3 samples.

Results

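The genes described here are 42 cell cycle genes, sorted by the phase in which their products act, out of 55357 features in the count matrices. Members were matched by gene symbol, and all 42 were found. They comprise 12 genes of DNA replication, 21 of mitosis, 5 G1 cyclins (Ccnd1, Ccnd2, Ccnd3, Ccne1 and Ccne2), 2 inhibitors of cyclin-dependent kinases (Cdkn1a and Cdkn1b) and 2 abundant genes linked to dividing cells (Stmn1 and Hmgb2). They were measured by droplet single-cell RNA sequencing in 3 libraries of lung cells from wild type C57BL/6 mice, 1 library per group. One group was given PBS, one LPS (4 mg/kg) and one LPS together with Reg3g protein (6 µg), each in 50 µL into the trachea and 24 h before the lungs were taken. LPS, a bacterial cell wall component, is used here to injure the lung, and Reg3g is a secreted lectin. Each library pools the cells of 3 mice. Viable cells had been sorted as CD45+ and Ly6G-, with F4/80 and with CD11b or CD11c, so the gate itself selects macrophages, monocytes and dendritic cells and removes most neutrophils.

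Cells copy their DNA in S phase with the helicase subunits Mcm2 to Mcm7 and the sliding clamp Pcna, and make the building blocks of DNA with Tyms, Tk1, Rrm1 and Rrm2. RNAs of mitosis accumulate afterwards, in G2 and M phase, and encode the kinase Cdk1 with its cyclins, the motors and scaffolds of the spindle, the centromere proteins and the checkpoint kinases. Replication genes are classically driven by E2F factors, whereas mitotic genes are classically held down in resting cells, and switched on late, through CHR and CCAAT elements of their promoters. Alveolar macrophages are long-lived cells that renew themselves by division in the lung. Monocytes come from the bone marrow and as a rule do not divide in blood.

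Since each group is 1 library, no test between treatments was possible, and treatment differences are given as log2 ratios with exact 95% intervals that cover counting error only. The matrices held 8475, 15015 and 10213 barcodes with 52354207, 70474636 and 60942042 UMIs (unique molecular identifiers, 1 per captured RNA) for PBS, LPS and LPS with Reg3g, an order kept below wherever 3 values follow each other. After filtering, 7856, 13046 and 9274 cells remained, with a median of 5920.5, 4208 and 5456 UMIs. The libraries shared 28 to 37 barcodes per pair, at most 0.437% of the smaller one. Cells were clustered with the cell cycle genes and genes correlated with them left out, a step meant to keep dividing cells with their own lineage. Whether each stayed there was not tested. The names rest on marker genes of each type. Alveolar-macrophage-like cells numbered 3570, 5041 and 4096, and monocyte-like cells 2243, 4344 and 3200. All 14 alveolar macrophage markers reached 10 CPM (the UMIs of a gene scaled by all UMIs of its class and library, as counts per 1000000) in the first class in every library, and all 10 classical monocyte markers in the second. Different clusters held each class in the groups: cluster 2 held 3534 of the alveolar-macrophage-like cells with PBS, and clusters 17, 7 and 16 most of those with LPS. Monocyte-like cells lay in clusters 5 and 3 with PBS and in clusters 9 and 11 with LPS. Cluster 12, led by Arg1, Upp1 and chemokine genes, was left unnamed and held 3, 1653 and 900 cells.

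The promoters of the members carried different letters by phase. The windows run from 250 bases before to 50 after the start of each gene (RefSeq, GRCm38.p6), and 34 of the 42 members had at least 1. Shares count genes, and a gene with more than 1 window counts if any of them holds the word. An E2F element was written as TTTCCCGC, TTTGGCGC, TTTCGCGC or TTTGCCGC on either strand. It stood in 5 of 11 replication genes (45.5%), in 1 of 18 mitosis genes (5.56%) and in 2.60% of all 27025 genes with a window. A CHR element, TTTGAA or TTTAAA on either strand, stood in 16 of 18 mitosis genes (88.9%), in 5 of 11 replication genes and in 30.6% of all. CCAAT stood in 16 of 18, 9 of 11 and 41.1%, and CHR together with CCAAT in 15 of 18, 4 of 11 and 12.2%. Each word was searched on its own, so overlapping matches each count. A match is a description of the letters and no evidence of binding. The 250 bases before the start are shown for 2 helicase genes with paired E2F words, for 4 mitosis genes with CHR and CCAAT, among them Cdk1, the 1 mitosis promoter that also holds an E2F word, and Mki67, whose RNA departs from the other mitosis genes below. Capitals mark the E2F, CHR and CCAAT words, which can overlap or abut.

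Mcm5 (chr8:75109259-75109508, plus strand): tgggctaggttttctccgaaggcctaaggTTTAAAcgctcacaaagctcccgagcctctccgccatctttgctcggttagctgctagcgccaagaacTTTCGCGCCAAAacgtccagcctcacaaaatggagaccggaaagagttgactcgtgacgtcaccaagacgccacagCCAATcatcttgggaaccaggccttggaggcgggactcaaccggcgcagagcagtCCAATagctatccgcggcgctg
Mcm6 (chr1:128359706-128359955, minus strand): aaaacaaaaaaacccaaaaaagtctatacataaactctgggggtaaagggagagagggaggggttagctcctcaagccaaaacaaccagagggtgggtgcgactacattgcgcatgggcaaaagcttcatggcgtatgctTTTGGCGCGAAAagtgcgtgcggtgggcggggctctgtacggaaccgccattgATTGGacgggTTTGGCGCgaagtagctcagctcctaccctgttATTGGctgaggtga
Ccnb1 (chr13:100786487-100786736, minus strand): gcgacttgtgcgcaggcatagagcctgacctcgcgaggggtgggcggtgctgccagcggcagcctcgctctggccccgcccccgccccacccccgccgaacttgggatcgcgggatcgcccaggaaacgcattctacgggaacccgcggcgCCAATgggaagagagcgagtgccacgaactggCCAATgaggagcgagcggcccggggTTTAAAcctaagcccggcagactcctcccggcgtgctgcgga
Ube2c (chr2:164769679-164769928, plus strand): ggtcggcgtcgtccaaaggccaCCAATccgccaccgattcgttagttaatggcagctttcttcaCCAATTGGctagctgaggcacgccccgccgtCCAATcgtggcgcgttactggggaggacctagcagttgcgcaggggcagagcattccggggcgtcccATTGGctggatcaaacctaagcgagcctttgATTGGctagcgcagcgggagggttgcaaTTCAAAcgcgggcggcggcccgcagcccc
Cdk1 (chr10:69352913-69353162, minus strand): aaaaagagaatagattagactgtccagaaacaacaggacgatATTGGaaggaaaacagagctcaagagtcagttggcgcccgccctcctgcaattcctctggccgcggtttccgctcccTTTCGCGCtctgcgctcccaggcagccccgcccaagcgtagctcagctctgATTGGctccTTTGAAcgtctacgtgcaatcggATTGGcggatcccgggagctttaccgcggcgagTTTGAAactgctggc
Mki67 (chr7:135716380-135716629, minus strand): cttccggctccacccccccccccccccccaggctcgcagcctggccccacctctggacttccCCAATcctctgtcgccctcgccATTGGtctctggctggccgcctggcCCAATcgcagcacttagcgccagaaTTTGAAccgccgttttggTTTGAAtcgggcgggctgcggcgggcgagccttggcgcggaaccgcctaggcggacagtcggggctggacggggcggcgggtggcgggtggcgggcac

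In Mcm5 the words TTTCGCGC and GCGCCAAA began 153 and 149 bases before the start and so overlapped, as did TTTGGCGC and GCGCGAAA at 110 and 106 bases in Mcm6. In Ccnb1 the CHR word began 42 bases before the start, with CCAAT words 99 and 67 bases before it. In Ube2c the CHR word lay at 29 bases, behind 6 CCAAT words. Cdk1 held CHR words at 71 and 15 bases and its E2F word at 131 bases, and Mki67 had CHR words at 116 and 98 bases.

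Alveolar-macrophage-like cells of the LPS library held less cell cycle RNA than those of the PBS library, and the deficit was larger for mitosis than for replication genes. Levels are in CPM of the class in a library. Summed over the 12 replication genes the level was 479, 296 and 355 CPM, a log2 ratio of LPS to PBS of -0.70 (-0.74 to -0.66). Summed over the 21 mitosis genes it was 576, 229.6 and 269.8 CPM, a log2 ratio of -1.33 (-1.37 to -1.29). With library totals all 12 replication genes lay below 0 (7 of 12 with TMM or median-of-ratios scaling), with a median log2 ratio of -0.55. Of 21 mitosis genes 20 did (19 with these scalings), with a median of -2.11, beside a median of -0.25 over all 7853 genes with at least 10 CPM in 1 of both libraries. At least 2-fold lower were 3 of 12 replication genes and, of the 17 mitosis genes with 10 CPM or more, 15, and over all genes 14.0% passed this limit downward and 5.77% upward. The other 4 mitosis genes passed it too, at levels under 10 CPM. In such sums, fewer dividing cells and less RNA per dividing cell cannot be told apart, which is taken up by cell below. Marker sums of other cell types also moved in this class: from PBS to LPS, epithelial markers went from 271 to 35.6 CPM, nonclassical monocyte markers from 196 to 89.1, interstitial macrophage markers from 115 to 237, plasmacytoid dendritic cell markers from 109 to 336, platelet markers from 8.03 to 73.6 and T and NK cell markers from 1.31 to 31.5. Of these lists 1 of 7, 2 of 10, 5 of 11, 1 of 7, 1 of 5 and 1 of 11 markers reached 10 CPM with LPS, in the same order, and their part in the result was not tested.

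The helicase subunits moved little. Mcm3 stood at 58.0, 49.4 and 57.9 CPM, -0.23 (-0.33 to -0.13) on the log2 scale for LPS against PBS. Mcm2 stood at 25.7, 22.3 and 24.5 CPM, Mcm5 at 18.0, 16.8 and 18.6 and Mcm6 at 28.3, 24.8 and 27.7, with log2 ratios of -0.20, -0.10 and -0.19. Mcm7 (41.9, 30.3 and 31.4) and Mcm4 (34.2, 22.1 and 26.5) were further apart, at log2 ratios of -0.47 and -0.63. Mcm7 overlaps Cops6 and Ap4m1 on the opposite strand.

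Pcna, the clamp, stood at 140.5, 77.4 and 98.0 CPM, -0.86 (-0.93 to -0.79). Pclaf, which encodes a Pcna-binding factor, was at 52.9, 12.0 and 21.8 CPM, -2.15 (-2.31 to -1.98). Tk1 (thymidine kinase) stood at 18.8, 3.97 and 6.46 CPM and Rrm2, the regulated subunit of ribonucleotide reductase, at 15.3, 5.28 and 7.50, log2 ratios of -2.24 and -1.53. These 3, Pclaf, Tk1 and Rrm2, are the replication genes that were at least 2-fold lower. Rrm1, the large subunit, stood at 27.7, 15.4 and 18.3 CPM and Tyms (thymidylate synthase) at 18.0, 15.7 and 16.0.

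Most mitosis genes lay well below the PBS library with LPS. Top2a, the topoisomerase that untangles chromosomes, stood at 59.2, 13.7 and 21.0 CPM, -2.11 (-2.27 to -1.96). Cenpf, of the kinetochore, stood at 30.1, 4.03 and 5.74 CPM, -2.90 (-3.18 to -2.63), the lowest ratio of the 42 genes. Kif23, a motor of cell division, stood at 39.9, 6.04 and 8.32 CPM, -2.72 (-2.95 to -2.50). In each of these genes both libraries with LPS lay below the PBS library, by a margin far larger than the counting interval.

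Birc5, a subunit of the chromosomal passenger complex, stood at 48.6, 11.2 and 16.1 CPM and Ube2c, the ubiquitin carrier of the anaphase-promoting complex, at 36.1, 8.83 and 10.0. Cdk1 stood at 21.6, 5.02 and 8.42, with the cyclins Ccnb1 at 9.23, 3.36 and 3.15, Ccnb2 at 22.9, 4.77 and 5.74 and Ccna2 at 12.9, 2.65 and 3.85. The spindle genes Prc1, Nusap1, Tpx2, Kif11 and Cenpe and the centromeric histone Cenpa had log2 ratios from -2.38 (Kif11) to -1.76 (Tpx2). The kinases Aurka, Aurkb, Plk1 and Bub1 were low throughout, at no more than 10.3 CPM (Aurkb with PBS), with ratios from -2.59 (Bub1) to -1.34 (Aurka).

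A pair of mitosis genes broke this pattern. Mki67, which encodes the proliferation antigen Ki-67 that coats mitotic chromosomes, stood at 81.5, 65.0 and 67.7 CPM, -0.32 (-0.41 to -0.24). Bub1b, which encodes the spindle checkpoint protein BubR1, stood at 38.9, 64.3 and 67.7 CPM, 0.73 (0.62 to 0.83), and was the 1 mitosis gene above 0. Stmn1, a regulator of microtubules, stood at 229, 92.2 and 122 CPM and Hmgb2, a chromatin protein, at 249, 90.5 and 120.0, at least 2-fold lower with LPS in both cases.

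The size of these ratios rests on the scaling. With TMM in place of library totals every log2 ratio of LPS to PBS in this class rises by 0.35, the median over all genes moves from -0.25 to 0.13, and calls of at least 2-fold pass from 29.1% to 57.3% upward. Then 3 replication and 14 mitosis genes are still at least 2-fold lower, and 1, Bub1b, is at least 2-fold higher. Mcm2, Mcm3, Mcm5, Mcm6, Tyms, Mki67, Ccnd1 and Cdkn1a change sign, so for these 8 genes no direction is stated.

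**Figure D1:**
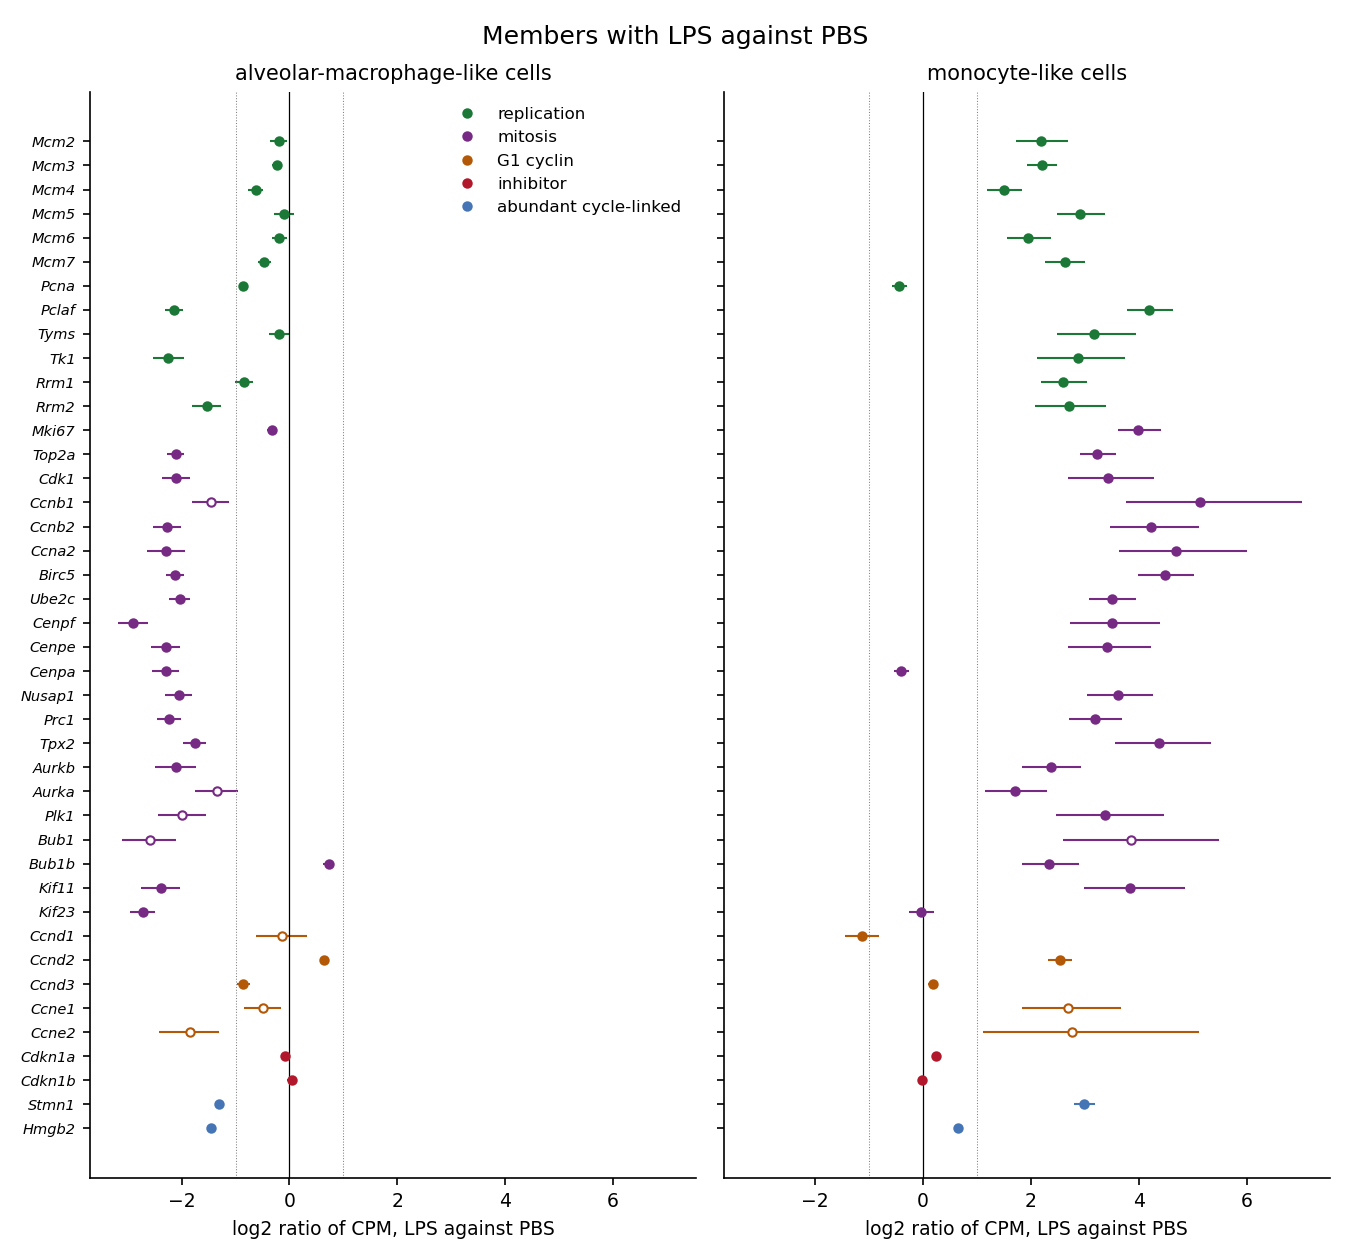
Log2 ratio of CPM, LPS against PBS, for each of the 42 genes (rows, coloured by role) in alveolar-macrophage-like (left) and monocyte-like cells (right). Bars are 95% counting intervals, dotted lines mark 2-fold, and open circles are genes under 10 CPM in both libraries. Most mitosis genes lie near -2 on the left and between 2 and 5 on the right. Bub1b at 0.73 on the left, and Pcna, Cenpa and Kif23 near or below 0 on the right, lie apart.

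In monocyte-like cells the same genes lay higher with LPS. The replication sum was 161, 495 and 400.4 CPM, a log2 ratio of 1.62 (1.53 to 1.70), and the mitosis sum 167, 758 and 528 CPM, a log2 ratio of 2.19 (2.11 to 2.27). At least 2-fold higher were 11 of 12 replication genes and 18 of the 20 mitosis genes with 10 CPM or more, against 8.85% of all 7629 genes, while 6.82% passed the limit downward. Over every member at any level the median log2 ratios were 2.61 and 3.49, beside 0.04 over all genes. Across both classes 17 members, 13 of them mitosis genes, passed the limit downward in the first and upward in this one, as did 0.765% of the 6924 genes with at least 10 CPM in both.

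Pclaf stood at 5.66, 104 and 75.7 CPM, 4.19 (3.78 to 4.64), the largest ratio among replication genes. Mcm3 stood at 13.6, 62.3 and 48.6 CPM, Mcm5 at 5.66, 42.6 and 31.4 and Mcm7 at 8.02, 49.5 and 33.8, with ratios of 2.20, 2.91 and 2.62. Both libraries with LPS lay well above the PBS library in each. Tyms, Tk1, Rrm1, Rrm2, Mcm2, Mcm4 and Mcm6 had ratios from 1.50 (Mcm4) to 3.17 (Tyms). Pcna did not follow its partners, at 92.0, 67.8 and 70.3 CPM, -0.44 (-0.58 to -0.31).

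Mki67 stood at 6.60, 105 and 66.1 CPM, 3.99 (3.61 to 4.40), and Birc5 at 3.89, 87.1 and 63.6 CPM, 4.48 (3.99 to 5.03). Top2a stood at 9.44, 88.7 and 63.6 CPM and Ube2c at 5.66, 63.8 and 41.4. Ccnb1, the cyclin of mitotic entry, had 4 UMIs with PBS and 263 with LPS, 5.14 (3.77 to 7.03). The kinase genes Cdk1, Plk1, Aurka, Aurkb, Bub1 and Bub1b had ratios from 1.70 (Aurka) to 3.85 (Bub1). The cyclins Ccna2 and Ccnb2 and the spindle and centromere genes Cenpe, Cenpf, Nusap1, Prc1, Tpx2 and Kif11 had ratios from 3.18 (Prc1) to 4.68 (Ccna2).

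Cenpa and Kif23 were the exceptions among mitosis genes. Cenpa stood at 82.2, 62.2 and 48.3 CPM, -0.40 (-0.54 to -0.26), and Kif23 at 26.9, 26.3 and 20.9 CPM, -0.03 (-0.27 to 0.21). Kif23 lies above 0 with TMM or median-of-ratios scaling, so no direction is stated for it. Neutrophil markers moved with these cells as well, from a summed 362 CPM in the PBS library to 886 CPM (LPS) and 1377 CPM (LPS and Reg3g), with 4 to 6 of 10 markers at 10 CPM or more. Erythroid markers stood at 2.12, 58.3 and 1.34 CPM and endothelial ones at 23.1, 64.0 and 90.3, while B cell markers stood at 207, 34.6 and 38.9, epithelial ones at 130.2, 20.0 and 33.2 and cDC2 markers at 156, 65.6 and 70.3. With LPS 2 of 5, 1 of 5, 2 of 9, 1 of 7 and 3 of 9 markers of these lists reached 10 CPM. The part of these markers in the result was not tested.

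**Figure D2:**
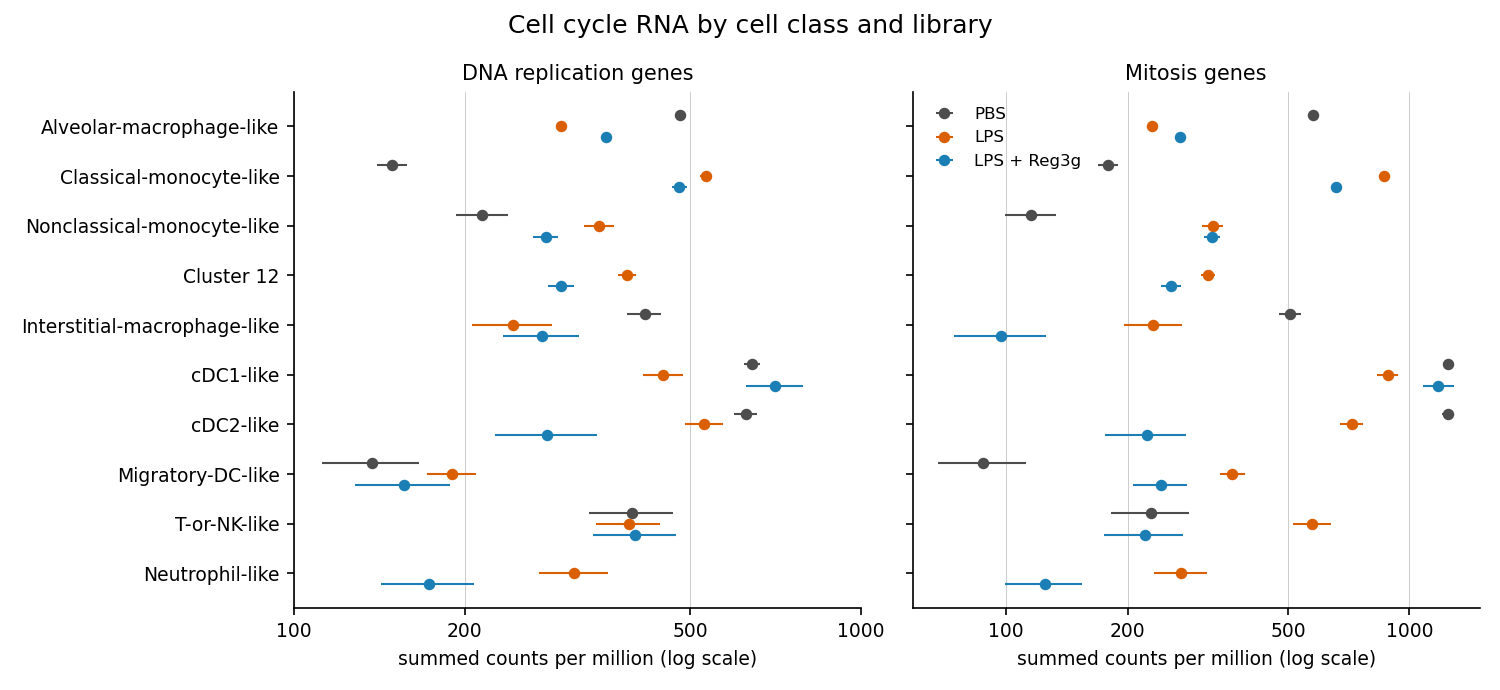
Summed CPM of the 12 replication genes (left) and the 21 mitosis genes (right), on a log scale, by cell class (rows) and library (colours), with 95% counting intervals. Classes with under 20 cells in a library are left out. Alveolar-macrophage-like cells are highest with PBS and classical-monocyte-like cells highest with LPS, and cDC1-like cells are high in all 3 libraries.

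Shares of cycling cells depended on how such cells were counted. Each cell was thinned to 2000 UMIs to set aside depth. In the design, a cycling cell was one with 3 or more UMIs of 33 further replication genes or of 38 further mitosis genes (companion lists that hold no member). That share was 21.4% (754 of 3527, 20.0 to 22.8%), 12.9% (625 of 4845, 12.0 to 13.9%) and 14.9% (597 of 4020, 13.8 to 16.0%) of alveolar-macrophage-like cells. Of monocyte-like cells it was 25.1% (459 of 1830, 23.1 to 27.1%), 27.1% (907 of 3343, 25.6 to 28.7%) and 22.3% (611 of 2734, 20.8 to 24.0%), so by this measure PBS and LPS were not distinguishable in that class. In neutrophil-like cells the share was 24.2% with LPS and 14.0% with LPS and Reg3g, and of the monocyte-like cells counted in the PBS library 1.09% had 5 or more UMIs of the mitosis members.

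A second definition was chosen after these values were seen, and the cell counts from here on use it: a cell with 5 or more UMIs of the 33 replication and mitosis members. It uses the members themselves, so it is no independent support for their ratios. Among alveolar-macrophage-like cells the share was 6.61% (233 of 3527, 5.81 to 7.48%) with PBS, 2.83% (137 of 4845, 2.38 to 3.33%) with LPS and 3.81% (153 of 4020, 3.24 to 4.44%) with LPS and Reg3g. Among monocyte-like cells it was 0.492% (9 of 1830, 0.225 to 0.932%) with PBS, 11.4% (382 of 3343, 10.4 to 12.6%) with LPS and 6.91% (189 of 2734, 5.99 to 7.93%) with LPS and Reg3g. The intervals of all 3 libraries stood apart among monocyte-like cells. Among alveolar-macrophage-like cells PBS stood apart from the other libraries, whose intervals overlapped. These intervals count cells of 1 pooled library per group and do not cover the spread between animals.

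The rule leaves out the 43, 196 and 76 alveolar-macrophage-like cells with under 2000 UMIs, and 413, 1001 and 466 monocyte-like ones. Without thinning the shares were 24.0, 17.4 and 25.8% of alveolar-macrophage-like and 3.08, 12.5 and 9.50% of monocyte-like cells, so in the first class the library with Reg3g then stands above PBS. Median depth was 7664.5, 6067 and 7576.5 UMIs in the first class and 3488, 3152.5 and 3939.5 in the second. Near the limit, 64, 73 and 78 alveolar-macrophage-like cells had 4 UMIs and 31, 27 and 28 had 5. Among monocyte-like cells these numbers were 12, 35 and 24, and 3, 32 and 15. Of all cycling cells, 9 of 445 (2.02%), 55 of 774 (7.11%) and 41 of 443 (9.26%) had been removed as doublets. Of all cells with at least 2000 UMIs these shares were 3.69, 6.71 and 4.40%. The part of this removal in the shares of cycling cells was not tested.

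Most cycling monocyte-like cells were classical ones, 8 of 9, 345 of 382 and 155 of 189. The class held 1597, 3269 and 1759 classical and 646, 1075 and 1441 nonclassical cells, so its mix differed between the libraries. In cluster 9, the classical cluster of both libraries with LPS, 345 of 2656 cells cycled with LPS and 154 of 1586 (9.71%) with LPS and Reg3g. In cluster 11, the nonclassical one, 5.42% and 2.98% did. Cluster 5, the classical cluster of the PBS library, had 6 cycling cells of 1469 (0.408%). Among alveolar-macrophage-like cells with LPS, cluster 16 had 6.25% and 8.86% cycling cells, cluster 7 had 3.76% and 5.72%, and the largest, cluster 17, 2.01% and 1.52%.

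Cells rich in either list were partly the same cells. With 5 or more UMIs of a single list as the limit, 69 of 3527 alveolar-macrophage-like cells of the PBS library passed for both lists, 72 for mitosis alone and 66 for replication alone. With LPS these were 29, 36 and 39 of 4845 cells, and with LPS and Reg3g 37, 35 and 51 of 4020. Monocyte-like cells with LPS leaned to mitosis, with 182 of 3343 cells passing for mitosis alone, 74 for replication alone and 83 for both. Within cycling cells, mitosis genes made up 68.3, 59.0 and 57.4% of the UMIs of the 33 genes in alveolar-macrophage-like cells. In monocyte-like cells they made up 66.5% with LPS and 65.6% with LPS and Reg3g. Cycling alveolar-macrophage-like cells held a mitosis sum of 5473, 2675 and 3208 CPM and a replication sum of 2540, 1859 and 2385. Both the share of cycling cells and their mitosis level were thus lower with LPS than with PBS in this class. Cycling monocyte-like cells held 3748 (9 cells), 4070 and 4245 CPM of mitosis genes and 1767, 2050 and 2222 CPM of replication genes. The same genes define the cycling cells, and the part of share and level in the class sums was not tested.

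**Figure D3:**
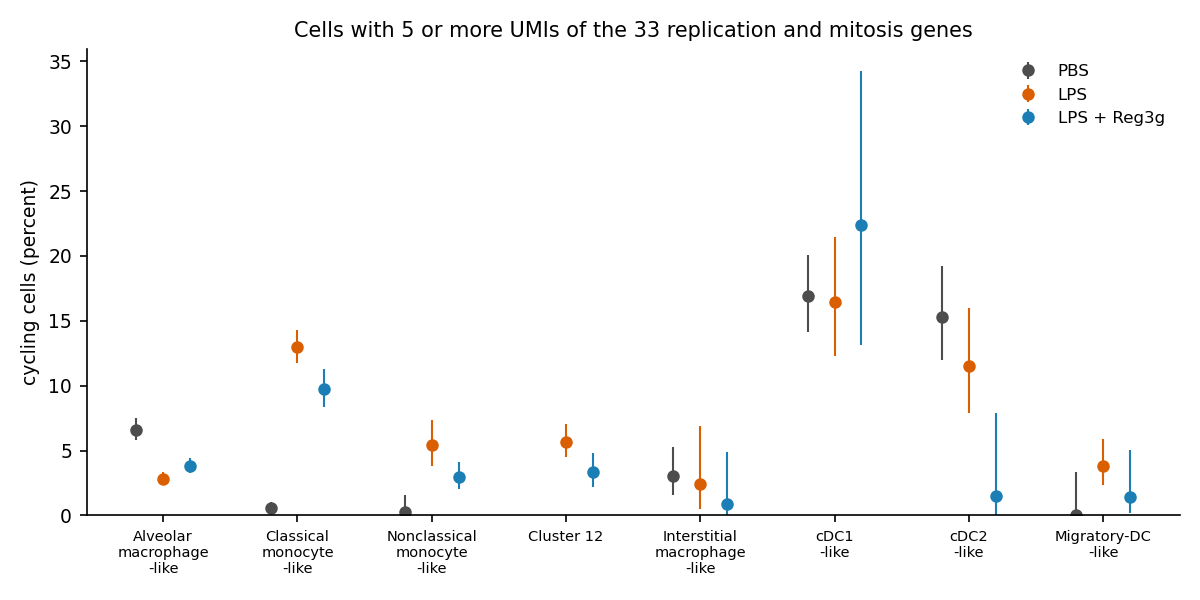
Percent of cells with 5 or more UMIs of the 33 replication and mitosis genes after thinning to 2000 UMIs, by class and library, with exact 95% binomial intervals. Classes with under 20 thinned cells in a library are left out. The definition was chosen after the data were seen. The share is 6.61% with PBS and 2.83% with LPS in alveolar-macrophage-like cells, 8 of 1474 and 345 of 2660 cells in classical-monocyte-like cells, and 16.5 to 22.4% in cDC1-like cells.

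The members differed in how far their RNA was confined to cycling cells. For each gene, cycling cells were counted again with its own UMIs left out. In alveolar-macrophage-like cells of the PBS library 96.3% of Nusap1, 95.7% of Cenpf, 94.2% of Pclaf and 92.0% of Top2a UMIs lay in the cycling cells, which were 6.61% of cells. The helicase genes lay between 26.0% (Mcm3) and 45.4% (Mcm5), and Pcna at 27.2%. Most UMIs of the helicase and clamp genes in this library were thus in barcodes not counted as cycling. Free RNA was not estimated, so a UMI outside cycling cells, here and below, need not come from the cell that holds it.

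Outside cycling cells the 2 classes also differed. In alveolar-macrophage-like cells Mcm3 stood there at 46.8, 46.0 and 50.8 CPM and Pcna at 111, 71.5 and 85.2. In monocyte-like cells Mcm3 stood at 12.6, 36.4 and 30.0 CPM and Pcna at 88.6, 49.4 and 54.0. Pcna therefore lay lower with LPS outside the cycling cells of both classes, while Mcm3 differed little in the first and was higher in the second. In monocyte-like cells with LPS and with LPS and Reg3g, 97.7 and 97.8% of Nusap1, 91.4 and 88.6% of Pclaf and 54.8 and 46.2% of Mcm3 UMIs lay in cycling cells.

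Mki67 and Bub1b RNA of alveolar-macrophage-like cells lay mostly outside cycling cells with LPS. The share of Mki67 UMIs in cycling cells was 85.9, 23.6 and 34.6%, and its level outside them 12.6, 51.6 and 46.0 CPM. Top2a kept 92.0, 70.3 and 82.6% in cycling cells and stood at 5.20, 4.23 and 3.83 CPM outside. For Bub1b the shares were 29.8, 4.40 and 6.95% and the levels outside 29.9, 63.7 and 65.6 CPM.

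After thinning, 2.09, 9.12 and 7.32% of these non-cycling cells had a Mki67 UMI, at a median depth of 7601, 6185 and 7623 UMIs. Neutrophil-like cells were taken for comparison, though 6 of 91 of them with LPS and 1 of 107 with LPS and Reg3g counted as cycling themselves, so they are no clean background. In these the share outside cycling cells was 5.88% with LPS (1.94 to 13.2%, 85 cells, median 4918 UMIs) and 2.83% with LPS and Reg3g (0.588 to 8.05%, 106 cells, median 3850.5 UMIs). These intervals reach those of the alveolar-macrophage-like cells (8.31 to 9.98% and 6.52 to 8.18%), so for Mki67 the share is not distinguishable from that in neutrophil-like cells. For Bub1b the shares were 5.79, 11.9 and 10.9% in alveolar-macrophage-like cells and 2.35% (0.286 to 8.24%) and 0.943% (0.0239 to 5.14%) in neutrophil-like ones, below the intervals of the former (11.0 to 12.9% and 9.89 to 11.9%). Lymphoid cells, counted with their cycling cells, gave another picture. Of these, 9.01% held a Bub1b UMI in the LPS library (interval 4.41 to 15.9%). In the library with Reg3g the value was 3.03% (interval 0.369 to 10.5%). Both intervals reach those of alveolar-macrophage-like cells, so the Bub1b share was set apart from neutrophil-like cells only, not from lymphoid ones. In monocyte-like cells with LPS outside cycling cells, Mki67 stood at 18.0 CPM (15.7 to 20.6) and Bub1b at 6.31 CPM (4.96 to 7.92). In migratory-dendritic-like cells with LPS, Mki67 stood at 45.7 CPM outside cycling cells, Bub1b at 6.67 CPM and Top2a at 16.4. Mki67 stood at 31.6 CPM (18.0 to 51.3) in neutrophil-like cells with LPS.

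Among clusters with LPS, Mki67 outside cycling cells was 60.1 CPM in cluster 17, 41.1 in cluster 16 and 21.9 in cluster 7, while Bub1b was 64.4, 50.6 and 69.7. The largest number of Mki67 UMIs in any such cell of the LPS library was 7. The library with Reg3g gave 56.3, 24.9 and 23.7 CPM of Mki67 in the same clusters. The only annotated gene that overlaps Mki67, Gm45240, had at most 0.0320 CPM in this class, and none overlaps Bub1b. These genes were singled out after their values were seen.

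Cenpa and Kif23 showed a like pattern in monocyte-like cells of the PBS library. Outside cycling cells Cenpa stood at 83.5, 26.2 and 23.7 CPM and Kif23 at 24.8, 7.25 and 6.37 CPM, against 10.9, 2.97 and 3.30 and 17.0, 3.14 and 2.71 in alveolar-macrophage-like cells. Of Cenpa UMIs in monocyte-like cells 2.84, 67.5 and 57.9% lay in cycling cells. The pattern was not particular to monocyte-like cells. Lymphoid cells, cycling ones included, held Cenpa at 110, 74.0 and 45.5 CPM and Kif23 at 26.5, 16.3 and 12.0. B-cell-like cells of the PBS library, of which 0 of 20 cycled, held Cenpa at 162 CPM (23 UMIs).

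Summed over the lists, mitosis genes outside cycling cells were higher with LPS in alveolar-macrophage-like cells, at a log2 ratio of 0.45 (0.38 to 0.51), while replication genes were at -0.22 (-0.26 to -0.17). TMM raises ratios over the whole class by 0.35, more than this replication ratio lies below 0, so no direction is stated for it. In monocyte-like cells the mitosis and replication ratios were -0.34 (-0.46 to -0.23) and 0.45 (0.34 to 0.55). In both classes the mitosis ratio outside cycling cells had the opposite sign of the ratio over all cells. The first sum includes Mki67 and Bub1b, and the second Cenpa and Kif23, at the levels given above. The 38 further mitosis genes that are no members were at -0.57 (-0.61 to -0.53) outside cycling cells of the first class.

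**Figure D4:**
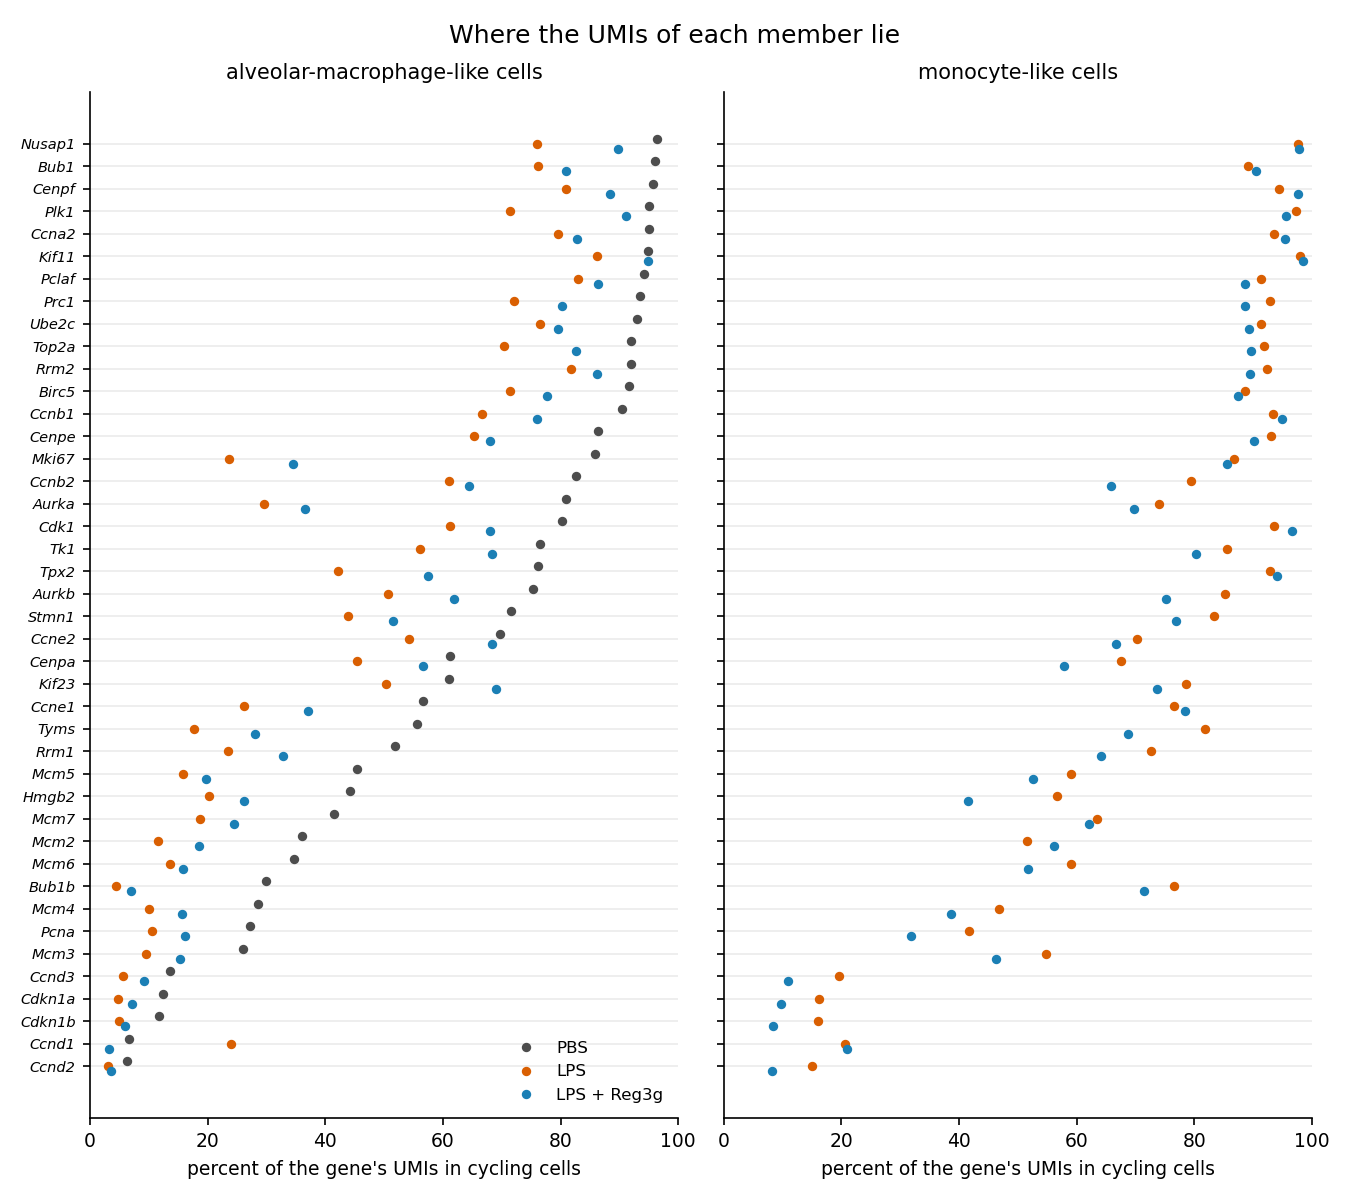
Percent of each gene's UMIs that lay in cycling cells (5 or more thinned UMIs of the other replication and mitosis genes) by library (colours), in alveolar-macrophage-like (left) and monocyte-like cells (right), with genes ordered by the PBS library on the left. The PBS library is not shown on the right, where only 9 cells cycled. Mki67 is at 85.9% with PBS and 23.6% with LPS on the left, while most other mitosis genes stay above 60%.

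With Reg3g added to LPS, differences were small and ran against each other in the 2 classes. In alveolar-macrophage-like cells the log2 ratio of LPS with Reg3g to LPS was 0.26 (0.22 to 0.30) for the replication sum and 0.23 (0.19 to 0.28) for the mitosis sum. In monocyte-like cells the ratios were -0.31 (-0.36 to -0.26) and -0.52 (-0.57 to -0.48). That class held 3269 classical and 1075 nonclassical cells with LPS, against 1759 and 1441 with LPS and Reg3g. The part of this mix in the ratios was not tested. No member was 2-fold apart in either class, and few genes were: of 7165 genes in the first class 0.0279% passed the limit upward and 0.0977% downward, and of 7377 in the second 0.122% and 0.203%. The share of these calls that point upward in the second class is 37.5% with library totals and 27.3% with TMM.

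In alveolar-macrophage-like cells all 12 replication genes (11 with TMM, where Tyms changes sign) and 18 of 21 mitosis genes lay above 0. Of those with 10 CPM or more, the interval lay above 0 for 6 of 10 and 3 of 6, against 29.4% of all genes, and below 0 for none, against 17.9%. Among replication and mitosis genes at any level Pclaf had the largest ratio, 0.86 (0.68 to 1.05), followed by Kif11 at 0.77 (0.36 to 1.18) and Cdk1 at 0.75 (0.46 to 1.04). Kif11 and Cdk1 lay under 10 CPM in both libraries. Mki67 and Bub1b stood at 0.06 (-0.03 to 0.15) and 0.07 (-0.02 to 0.16). In monocyte-like cells all 21 mitosis genes and 11 of 12 replication genes lay below 0. Of those with 10 CPM or more, the interval lay below 0 for 20 of 20 mitosis and 9 of 12 replication genes, against 15.8% of all genes, and above 0 for none, against 26.3%.

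Among replication and mitosis genes Cdk1 had the lowest ratio in monocyte-like cells, -0.88 (-1.18 to -0.59), followed by Nusap1 at -0.87 (-1.08 to -0.66) and Mki67 at -0.67 (-0.79 to -0.55). Pcna was the exception at 0.05 (-0.07 to 0.18), and it falls below 0 with median-of-ratios scaling. Cdkn1a stood at -0.67 (-0.72 to -0.63) in this class and -0.29 (-0.34 to -0.25) in the other. With 1 library per group, these ratios cannot be set against the spread between animals.

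Among dendritic cells, cDC1-like cells held high levels in all 3 libraries. In cDC1-like cells the mitosis sum was 1245, 884 and 1180.3 CPM and the share of cycling cells 16.9% (111 of 655), 16.5% (45 of 273) and 22.4% (15 of 67). Mki67 stood at 212, 126 and 195 CPM and Pclaf at 138, 84.0 and 159 in these cells. In cDC2-like cells the share was 15.3% (62 of 405), 11.5% (30 of 261) and 1.47% (1 of 68), with a mitosis sum of 1249, 719 and 223 CPM. The interval of the last share, 0.0372 to 7.92%, lies below that of PBS (11.9 to 19.2%) and just reaches that of LPS (7.89 to 16.0%).

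Interstitial-macrophage-like cells had a mitosis sum of 507, 232 and 97.3 CPM and 12 of 396, 3 of 125 and 1 of 112 cycling cells. Cluster 12 had 75 of 1325 cycling cells with LPS (5.66%) and 27 of 805 with LPS and Reg3g (3.35%), and too few cells with PBS. Its mitosis sum was 317 and 256 CPM, and its replication sum 387 and 296.

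Within a library, most mitosis members and the helicase genes differed between cells grouped by phase with other genes. Cells of each class were grouped by genes that are no members, the companion lists (3 or more thinned UMIs of one list and fewer of the other). The companions are themselves replication and mitosis genes, and cells rich in both lists were left out. The direction of most differences was thus largely set by the grouping, and the contrast is a description of each member. Members were then compared between the mitosis and the replication group with edgeR's quasi-likelihood test and Benjamini-Hochberg adjustment, with the 3 libraries as replicates and as a block. In alveolar-macrophage-like cells 24 of 40 members tested were higher in the mitosis group and 9 lower, against 1.73% and 1.19% of all 9238 genes tested. Of 21 mitosis genes 19 were higher and none lower, and of 12 replication genes 7 were lower and 1 higher.

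Values with an SE, here and in the contrasts below, are log2 fold changes. Ube2c had the largest log2 fold change, 6.08 ± 0.23 (SE), adjusted p = 3.5e-15. It stood at 1.08, 2.37 and 0.995 in the replication group and 143, 99.0 and 74.2 in the mitosis group (CPM), higher in 3 of 3 libraries. Cenpf followed at 5.83 ± 0.27 (SE), adjusted p = 1.8e-13, and Plk1, the polo kinase, at 5.27 ± 0.52 (SE), adjusted p = 1e-07. Mki67 reached 1.80 ± 0.18 (SE), adjusted p = 1.4e-07 and Cdk1 1.41 ± 0.22 (SE), adjusted p = 0.00017. The 2 mitosis genes that did not pass were Aurkb, 1.20 ± 0.34 (SE), adjusted p = 0.051, and Bub1b, 0.18 ± 0.14 (SE), adjusted p = 0.7. With companions counted from 7 UMIs both passed, Aurkb at 1.37 ± 0.31 (SE), adjusted p = 0.004, and Bub1b at 1.02 ± 0.22 (SE), adjusted p = 0.0028. With DESeq2, Mki67, Cdk1 and Aurka did not pass, at adjusted p = 0.0622, 0.214 and 1.

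All 6 helicase genes and Pcna were lower in the mitosis group by edgeR. With DESeq2 Mcm2, Mcm3, Mcm6 and Mcm7 passed, and Mcm4, Mcm5 and Pcna did not, at adjusted p = 0.19, 0.0503 and 0.117. Mcm5 had the lowest value of these 7, -1.52 ± 0.21 (SE), adjusted p = 3.1e-05, at 47.3, 39.5 and 50.8 in the replication group and 11.5, 25.8 and 16.2 in the mitosis group (CPM), lower in 3 of 3 libraries. Mcm2 was at -1.50 ± 0.16 (SE), adjusted p = 6e-07 and Pcna at -0.64 ± 0.10 (SE), adjusted p = 0.00019. The nucleotide genes did not follow the helicase: Tyms was at -0.41 ± 0.23 (SE), adjusted p = 0.52, Tk1 at -0.18 ± 0.23 (SE), adjusted p = 0.86, Rrm1 at -0.60 ± 0.17 (SE), adjusted p = 0.063 and Rrm2 at 0.81 ± 0.33 (SE), adjusted p = 0.29. Pclaf was higher in the mitosis group, 1.08 ± 0.16 (SE), adjusted p = 5.2e-05, but with companions counted from 7 UMIs it was at 0.30 ± 0.15 (SE), adjusted p = 0.22 by the same test, and with DESeq2 its adjusted p was 0.0868.

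Of the other members, the inhibitors Cdkn1a (0.33 ± 0.08 (SE), adjusted p = 0.012) and Cdkn1b (0.51 ± 0.12 (SE), adjusted p = 0.016) were higher in the mitosis group, as were Stmn1 and Hmgb2. Ccnd2 was lower, -0.21 ± 0.06 (SE), adjusted p = 0.035, and so was Ccne1, -1.87 ± 0.49 (SE), adjusted p = 0.029, the cyclin of S phase entry, though in 2 of 3 libraries only. With DESeq2 these 4 cyclins and inhibitors did not pass, with adjusted p from 0.324 upward, and with companions counted from 7 UMIs Cdkn1a and Ccnd2 did not, at adjusted p = 0.172 and 0.0803 by edgeR.

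In monocyte-like cells 14 of 35 members tested were higher in the mitosis group and 8 lower, against 1.01% and 0.739% of 7851 genes. The higher ones were 13 mitosis genes and Hmgb2, and the lower ones all 6 helicase genes, Pcna and Rrm2. With DESeq2 Mcm5, Mcm7, Pcna and Rrm2 did not pass, nor did the mitosis genes Cdk1, Cenpa, Prc1, Kif11 and Kif23, with adjusted p from 0.0536 (Mcm5) upward. From 7 companion UMIs Cdk1 did not pass, at adjusted p = 0.323 by edgeR. The PBS library had too few cells for that limit, so only the libraries with LPS entered. Ube2c was again first, 4.59 ± 0.22 (SE), adjusted p = 5.7e-17, and Mcm6 last, -2.27 ± 0.22 (SE), adjusted p = 5.2e-09. Rrm2 was at -1.69 ± 0.35 (SE), adjusted p = 0.0028, lower in 2 of 3 libraries, and Pclaf at 0.44 ± 0.16 (SE), adjusted p = 0.24. The PBS library held few cycling monocyte-like cells, and without it 22 members were higher and 10 lower, against 2.01% and 1.33% of all genes, whereas without the LPS library 8 were higher and 7 lower, against 0.364% and 0.515%.

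The companion groups include many cells with little cell cycle RNA. Of the alveolar-macrophage-like cells of the PBS library in the mitosis group, 15.1% had 5 or more UMIs of the mitosis members, and in the replication group 7.10% had 5 or more of the replication members. With companions counted from 7 UMIs, which keeps 58, 26 and 50 cells in the replication and 65, 36 and 30 in the mitosis group, 23 members were higher and 8 lower, 20 of them mitosis and 7 replication genes, against 5.70% and 5.37% of all genes.

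**Figure D5:**
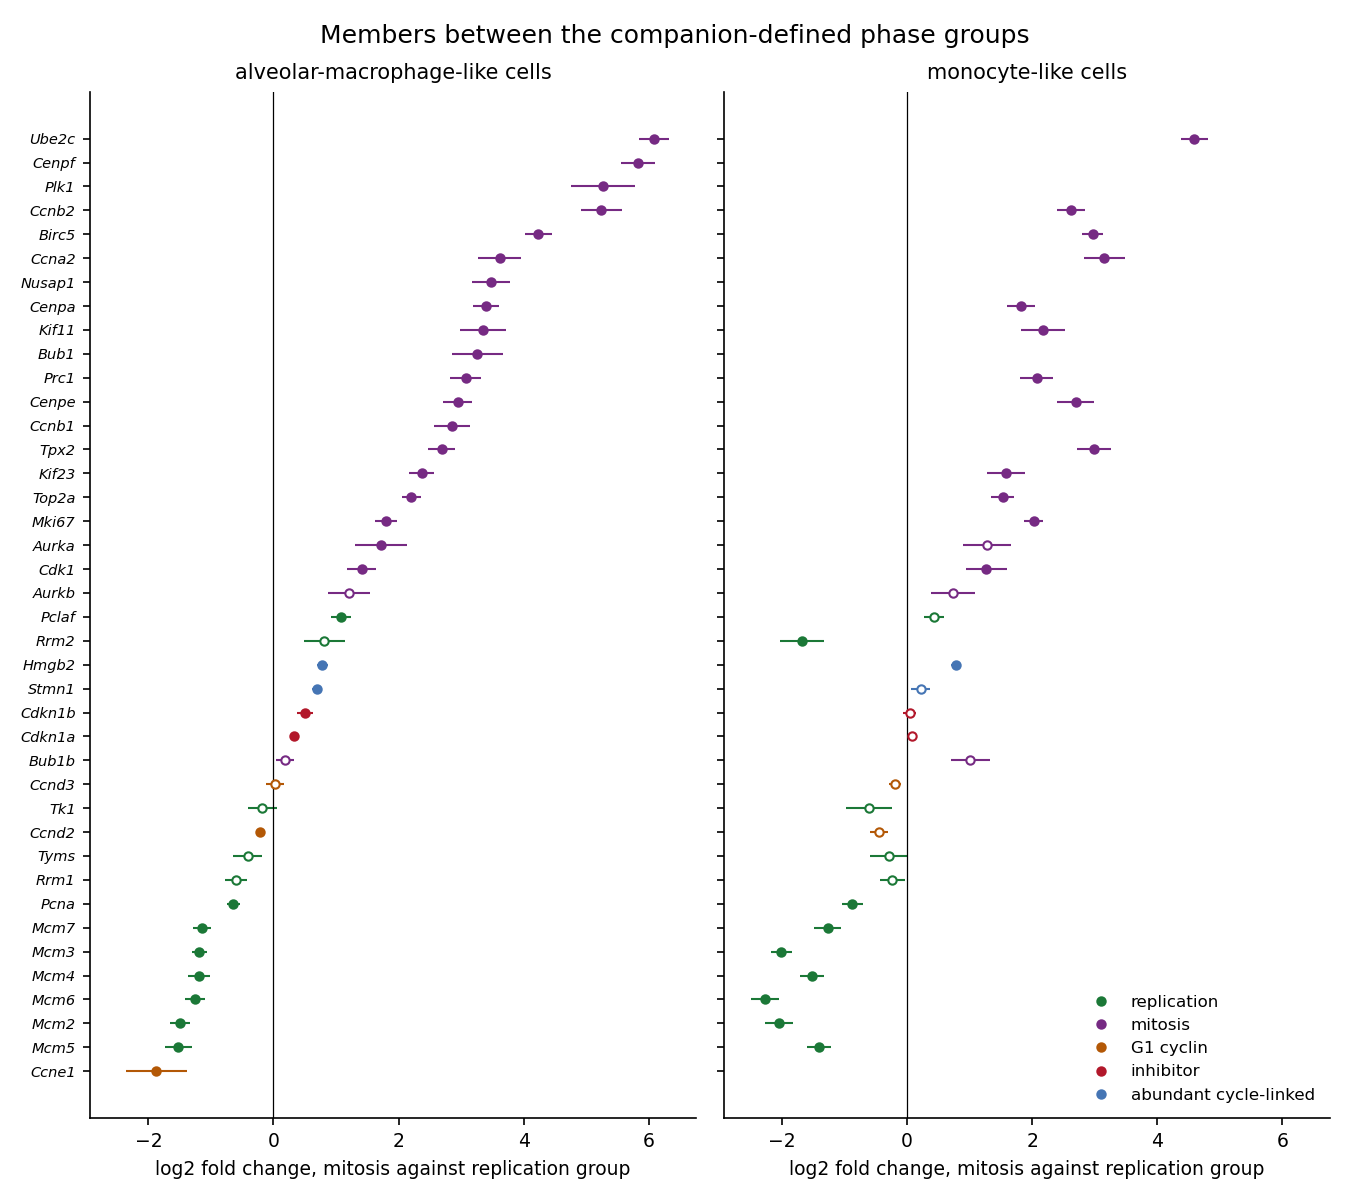
Log2 fold change of each member between the mitosis and the replication group of cells (edgeR, 3 libraries as a block), with bars of 1 SE, in alveolar-macrophage-like (left) and monocyte-like cells (right), with genes ordered by the left panel. Filled circles passed an adjusted p of 0.05. Mitosis genes lie to the right, up to 6.08 for Ube2c, and the helicase genes and Pcna to the left in both panels.

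Between the 2 classes, with library as a block, 3 of 42 members tested were higher in alveolar-macrophage-like cells and 6 lower (edgeR, adjusted p under 0.05). Of all 13316 genes 21.8% were higher and 22.4% lower, so members were called less often than genes in general. G1 cyclins and inhibitors made up 5 of the 9 members that differed. Ccnd2, cyclin D2, was higher, at a log2 fold change of 3.23 ± 0.40 (SE), adjusted p = 0.0057. It stood at 512, 802 and 720.3 CPM in alveolar-macrophage-like and 22.9, 133 and 111 in monocyte-like cells. Ccnd3 was lower, -2.61 ± 0.20 (SE), adjusted p = 0.002, at 48.9, 27.1 and 30.1 CPM in alveolar-macrophage-like and 186, 211 and 229.7 in monocyte-like cells, and so was Ccnd1, -2.31 ± 0.34 (SE), adjusted p = 0.0091. All 3 libraries stood on the same side for each of these 3 cyclins.

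Cdkn1b, the inhibitor p27, was lower in alveolar-macrophage-like cells, -1.76 ± 0.12 (SE), adjusted p = 0.0015, at 57.6, 59.7 and 51.6 CPM in alveolar-macrophage-like and 198, 196 and 179 in monocyte-like cells. Cdkn1a, the inhibitor p21, was lower, -0.68 ± 0.13 (SE), adjusted p = 0.018, and Hmgb2 too, -1.82 ± 0.41 (SE), adjusted p = 0.026. Bub1b was higher, 2.30 ± 0.28 (SE), adjusted p = 0.0056, at 38.9, 64.3 and 67.7 CPM in alveolar-macrophage-like and 4.13, 20.9 and 14.7 in monocyte-like cells, and Pcna slightly so, 0.43 ± 0.11 (SE), adjusted p = 0.034. Cenpa was lower, -2.65 ± 0.35 (SE), adjusted p = 0.0068.

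The other 19 mitosis and 11 replication genes did not pass, with SEs as large as 1.51 (Birc5). Birc5 was higher in alveolar-macrophage-like cells with PBS and lower in both libraries with LPS. Without the PBS library 4 members were higher and 30 lower, 19 of them mitosis genes, against 33.2% and 32.7% of all genes. Without the LPS library 2 were higher and 4 lower, against 8.33% and 9.19% of all genes, and without the library with Reg3g also 2 and 4, against 8.21% and 8.84%.

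By treatment, Ccnd2 stood at a log2 ratio of LPS to PBS of 0.65 (0.62 to 0.68) in alveolar-macrophage-like and 2.54 (2.32 to 2.76) in monocyte-like cells. Ccnd3 was at -0.85 (-0.98 to -0.73) in the first class and Ccnd1 at -1.13 (-1.45 to -0.82) in the second. Cdkn1b was at 0.05 (-0.04 to 0.15) and -0.01 (-0.10 to 0.08), the latter changing sign with TMM, and Cdkn1a at 0.23 (0.18 to 0.29) in the second class. Ccne1 and Ccne2 stayed under 10 CPM in every library of these 2 classes. Ccnd1 overlaps LTO1, and Ccnd3 overlaps Bysl, on the opposite strand.

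Of 33 replication companions in alveolar-macrophage-like cells 19 reached 10 CPM and 3 were at least 2-fold lower with LPS, a share near the 14.0% of all genes, among them Clspn, of the replication checkpoint, at 17.8, 4.09 and 7.60 CPM. Of 38 mitosis companions 22 reached it and 14 were lower, against the same 14.0%, led by Anln, of the contractile ring, at 28.1, 3.49 and 5.55, and none of either list was 2-fold higher. In monocyte-like cells 11 of 19 and 12 of 21 were at least 2-fold higher, against 8.85% of all genes, led by Uhrf1, of DNA methylation upkeep, at 0.590, 19.6 and 16.1 CPM and Cdca3 at 1.89, 40.3 and 27.7.

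Among 14 regulators, E2f2 stood at 26.9, 6.20 and 8.73 CPM in alveolar-macrophage-like cells, -2.11 (-2.35 to -1.88), and Rbl1, a pocket protein of the Rb family, at 35.2, 12.2 and 17.6, -1.52 (-1.70 to -1.35). In this list 9 genes reached 10 CPM, of which 3 were at least 2-fold lower and none higher, against 14.0% and 5.77% of all genes. In monocyte-like cells E2f1 stood at 7.43, 30.0 and 19.8 CPM, 2.01 (1.63 to 2.42), with 3 of 9 genes at least 2-fold higher, against 8.85% of all genes. E2f2 was at 84.8, 50.6 and 53.7 CPM there.

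Of 13 other kinases and inhibitors, Cdc25b, a phosphatase that activates Cdk1, stood at 26.7, 4.96 and 5.86 CPM in alveolar-macrophage-like cells, -2.43 (-2.69 to -2.18), and Wee1, the kinase that restrains Cdk1, at 4.49, 13.7 and 14.8, 1.60 (1.31 to 1.90). Of 8 genes at 10 CPM these were the only ones 2-fold apart, 1 lower and 1 higher, against 14.0% and 5.77% of all genes. In monocyte-like cells 3 of 8 were at least 2-fold higher, against 8.85% of all genes, led by Cdkn3 at 1.30, 12.4 and 7.93 CPM. Cdk4, the partner of the D cyclins, stood at 37.4, 74.3 and 64.1 CPM.

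Of 12 p53 targets 10 reached 10 CPM in alveolar-macrophage-like cells and 4 were at least 2-fold lower, against 14.0% of all genes, among them Btg2 at 409, 123 and 117 CPM and Phlda3 at 86.9, 32.3 and 34.5. In monocyte-like cells the counts were near the shares of all genes, 8.85% higher and 6.82% lower: 1 of 10 was at least 2-fold higher, Bax, at 223, 579.7 and 472 CPM, and 1 lower, Trp53inp1, at 20.2, 8.49 and 11.2. Of 9 genes for growth factor receptors and their factors, Csf1r, the receptor of M-CSF, stood at 64.3, 159 and 151 CPM in alveolar-macrophage-like cells, a log2 ratio of LPS to PBS of 1.30 (1.23 to 1.38). Pparg stood there at 159.9, 66.8 and 86.0 CPM, and in monocyte-like cells at 36.6, 8.62 and 12.0. With TMM, log2 ratios of LPS to PBS rise by 0.35 in the first class and 0.09 in the second.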

How the data were processed

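Single-cell RNA was measured in 3 libraries. The deposited matrices hold whole-number counts of UMIs per gene and barcode, produced by the authors in Cell Ranger, version 9.0.1 per the file headers. In addition the submitters' processing notes list Seurat 4.4.0, bcl2fastq 5.0.1 and mm10. Which gene annotation was used for counting was not stated there.

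Barcodes under 500 genes, under 1000 UMIs or over 15% mitochondrial UMIs were dropped (343, 1135 and 544 in the 3 libraries). Scrublet scores then removed 276, 834 and 395 cells as doublets, at 0.4% per 1000 barcodes. Clustering (scanpy 1.11.5, Leiden resolution 1, 2000 variable genes, 30 components) left out 312 genes and gave 21 clusters, of which 4 were left unnamed. The 312 were the listed cell cycle genes and genes whose log level correlated over 0.2 with the summed replication and mitosis lists. Names came from fixed marker lists.

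UMIs were summed by class and library. Intervals are exact (Poisson, conditional binomial, Clopper-Pearson, 95%) and cover counting error only. A call between 2 libraries means at least 2-fold apart with at least 10 CPM in the higher one. Contrasts within libraries used edgeR 4.0.16 with library as a block and an adjusted p of 0.05. The 3 libraries differ in treatment, and each is a pool, so these p-values measure the spread between the libraries. Tested on simulated data, edgeR recovered 77% of 2-fold and 99% of 4-fold changes in the phase contrast of alveolar-macrophage-like cells (9178 genes), 77% and 98% in monocyte-like cells (7951 genes) and 92% and 99% in the class contrast (13335 genes). The simulation gave all genes the same fixed spread and changed only genes of higher count. It therefore does not give the power for members of low count or of larger spread, such as Birc5 in the class contrast.

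The members and gene lists were chosen with earlier results of these data known. By the rule for named genes, each role list contributes the members of highest level and of largest ratio, and each other list up to 4 genes of at least 10 CPM with the largest ratio. The member-based count of cycling cells, the companion limits of 5 and 7 UMIs in the phase contrast and the treatment of cluster 12 as monocyte-like were chosen after the data were seen. Other alternatives were the cell filter, doublets, resolution, clustering genes, scaling, weighting, thinning, DESeq2 1.42.0 and leaving out a library.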

Additional observations from a re-analysis of the deposited data

Results flagged for a closer look

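Both gene groups stood in opposite directions in the 2 classes, and with 1 library per group the difference was not tested. For LPS against PBS the log2 ratio of the replication sum was -0.70 in alveolar-macrophage-like and 1.62 in monocyte-like cells. The ratio of the mitosis sum was -1.33 and 2.19. For LPS with Reg3g against LPS the replication sum stood at 0.26 and -0.31, and the mitosis sum at 0.23 and -0.52. These 2 comparisons share the LPS library. At least 2-fold apart in opposite directions for LPS against PBS were 17 members: 3 replication genes, 13 mitosis genes and Stmn1, all lower in the first class and higher in the second, as were 0.765% of the 6924 genes with at least 10 CPM in both classes.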

How the results depend on the processing

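All 8 log2 ratios of the summed lists kept their sign under every alternative run, and 81 of the recomputed values moved by less than the counting interval or within 1.5 times, while 69 moved further. The cause was not tested. For LPS against PBS in alveolar-macrophage-like cells, the replication ratio was -0.51 with cells weighted equally, -0.50 with cells thinned to 2000 UMIs, -0.35 with TMM and -0.36 with median-of-ratios scaling. The mitosis ratio there was -1.42 with cell cycle genes kept for clustering, -1.02 with equal weights, -0.96 thinned, -0.98 with TMM and -0.99 with median-of-ratios scaling. For LPS with Reg3g against LPS the mitosis ratio was 0.15 thinned. In monocyte-like cells, LPS against PBS, the replication ratio was 1.72 with the stricter cell filter, 1.46 at resolution 2, 1.77 with cell cycle genes kept, 1.05 with equal weights, 1.25 thinned, 1.52 with cluster 12 added and 1.71 with TMM. The mitosis ratio was 2.29, 1.95, 2.45, 1.70, 1.85, 1.90 and 2.28 in the same order, and 2.31 without doublet removal. For LPS with Reg3g against LPS the replication ratio was -0.36 with the stricter filter, -0.25 with equal weights and -0.37 with median-of-ratios scaling. The mitosis ratio was -0.45 at resolution 2, -0.57 thinned, -0.44 with cluster 12 added, -0.57 with TMM and -0.59 with median-of-ratios scaling.

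Shares of cycling cells depended most on the definition. For alveolar-macrophage-like cells the companion lists gave 46.8, 33.9 and 36.7% at 2 UMIs, 7.94, 3.14 and 4.43% at 5, 5.08, 1.65 and 2.74% at 7, and 8.68, 3.99 and 5.42% when thinned to 1000 UMIs, beside 6.61, 2.83 and 3.81% by the members. For monocyte-like cells they gave 54.6, 51.5 and 49.6% at 2 UMIs, where PBS was highest, 3.55, 11.5 and 8.01% at 5, 0.492, 8.59 and 5.56% at 7, and 6.42, 11.3 and 8.56% when thinned to 1000 UMIs, beside 0.492, 11.4 and 6.91% by the members.

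In the phase contrast, 4 members were lower in the mitosis group with DESeq2 in either class, against 9 and 8 with edgeR. Leaving out 1 library gave 8 to 22 members higher and 5 to 10 lower in monocyte-like cells, the lowest count of 5 without the library with Reg3g. Between classes it gave 4 to 30 lower, with 30 without the PBS library. No paired analysis was possible because each group is 1 library; the contrasts within libraries already hold the library as a block.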
